A study of Homo sapiens with 56 samples.

Results

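JEKO-1 and MINO-P, a pair of established human mantle cell lymphoma cell lines, were compared by poly-A RNA-seq under 3 shared treatments. All JEKO-1 libraries (5) and MINO-P libraries (6) labelled IBR, YM155 or S63845 entered the comparison, 11 of the 56 libraries of the series, and all 11 carry names of the same library series (MCL). JEKO-1 had 3 IBR libraries, 1 YM155 library and 1 S63845 library, and MINO-P had 3 IBR, 1 YM155 and 2 S63845 libraries. The study's title concerns blocking BIRC5 and MCL-1 against drug resistance in this lymphoma, and its design text describes YM155 and S63845 given alone and together with agents it calls PI and BTKi. YM155 was developed as a suppressor of BIRC5 (survivin) expression, S63845 is an inhibitor of the MCL-1 protein, and IBR is the label's code for the remaining treatment. No library of this comparison is untreated, the labels give neither dose nor time, and each line descends from 1 patient's tumour, so a line difference is a difference between 2 tumours and their culture histories. The labels do not say whether libraries of a group came from separate cultures, so the p-values below measure only the spread between these libraries. Genes on chromosomes X and Y were left out.

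Mantle cell lymphoma is a tumour of mature B cells in which a translocation places the cyclin D1 gene, CCND1, under the control of the immunoglobulin heavy-chain locus. A B cell assembles its antigen receptor from 1 set of heavy-chain segments and 1 set of kappa or lambda light-chain segments, and a tumour that descends from 1 B cell keeps that choice. Lines of this lymphoma therefore carry their own receptor sequence, together with differences in surface proteins, chromosome number and silenced genes acquired in the patient or in culture.

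Expression is given as CPM (read counts scaled to a common library total), and line differences as the JEKO-1 minus MINO-P difference of log2(CPM + 1), with its standard error (SE), from limma with treatment as a block. On this scale the differences of genes with low values are understated. Recovered depth was 7.09 to 21.62 M reads, so that 3 reads, used here as the limit of detection, were worth 0.139 to 0.423 CPM. In 4 libraries, 2 of each line (JEKO-1 IBR replicate 3 and S63845, MINO-P IBR replicate 3 and S63845 replicate 2), 292 to 440 genes stood at 1 to 5 reads, against 1148 to 2166 in the other 7. The pairs JEKO-1 IBR replicates 1 and 2 and MINO-P IBR replicates 1 and 2, whose library names differ by a final letter, were closer to each other than any other pair of a group, with a chi-square per degree of freedom of 5.1 and 8.29 against 110.2 to 175.4. The part of these 2 properties in each result was not tested beyond the counts given with them left out or averaged. The mitochondrial share of reads in JEKO-1 was 20.9%, 19.9% and 13.5% in IBR, 6.72% in YM155 and 17.5% in S63845. In MINO-P it was 17.5%, 15.6% and 8.51% in IBR, 5.74% in YM155 and 8.17% and 8.92% in S63845. Within treatments the JEKO-1 share was 4.73 percentage points higher (two-sided exact permutation test within treatment, p = 0.0333, smallest possible 0.0083), but the p was 0.0833 with the lettered pairs averaged and 0.2 without the JEKO-1 S63845 library.

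Line was the main axis of variation. In a principal component analysis, component 1 carried 43.6% of the variance and line accounted for 99.8% of it. Component 2 carried 22.4%, and treatment accounted for 70.7% of it. Pearson correlations across genes within a library pair were 0.850 to 0.978 within a line and 0.776 to 0.855 between lines. Of 14054 autosomal and mitochondrial genes tested, 4340 passed an adjusted p of 0.05 (30.9%), 2339 higher in JEKO-1 (16.6%) and 2001 higher in MINO-P (14.2%). The 2 lines did not overlap in any library for 2139 genes (15.2%), and 2086 of these were called. Without the 4 libraries with few genes at low reads, 4826 genes were called, and 59.5% of them were higher in JEKO-1 against 53.9% with all libraries. With the lettered pairs averaged, 3034 were called. In the YM155 and S63845 libraries alone (2 of JEKO-1, 3 of MINO-P) 1140 were called, and among the genes described below MS4A1, CD79A, CD79B, CD22, CD5, MYC, CDKN2A, BIRC5, HRK, FCRL5, PCDH9, CCL3, TNFSF14, IFI27, USP18, SLC35F2, TNFRSF17, HLA-DPA1, HLA-DQB2 and ZNF85 were not. In the IBR libraries alone CD22, CD5, CD79B, HLA-DRB1, HLA-DPA1, SAMD9 and ABCC4 were not called. No gene passed the limma F-test for a line difference that varied between the 3 treatments (0%), 1566 had an unadjusted p under 0.05, and the smallest adjusted p was 0.0835, a test in which JEKO-1 has 1 library for each of 2 treatments.

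The genes with the largest excess in JEKO-1 were close to silent in MINO-P. The first 12 by size, all called and without overlap, differed by 5.844 to 9.998 on the log2 scale (SE 0.22 to 0.39). IGKC, the constant region of the kappa light chain, led them and is described with the receptor genes. CTCFL (ENSG00000124092, chromosome 20, 57495966 to 57525653 in GRCh38), a paralogue of the chromatin factor CTCF that is normally restricted to the testis, stood at 154, 177 and 340.4 CPM in the IBR libraries of JEKO-1, 242 in YM155 and 289 in S63845. It had no read in any MINO-P library, and the mean of JEKO-1 was at least 1096-fold higher than the 3-read floor of MINO-P. PRAME, a tumour antigen that is also a testis gene, was at 119, 128, 216, 156 and 123 CPM in the same order of JEKO-1 libraries and at 0 in the median MINO-P library, with a highest value of 0.33 CPM (log2 difference 7.12 ± 0.29 SE). DPEP3, a membrane dipeptidase of the testis, was at 173, 191, 297, 317 and 161 CPM in JEKO-1 and at most 0.424 CPM in MINO-P. All JEKO-1 libraries were thus far above all MINO-P libraries for these 3 genes, under each treatment.

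The remaining 8 of the 12 were ADD2, BMP7, KBTBD11, STC2, CLGN, TBX15, ARHGAP21 and RBM20. ADD2, a subunit of the membrane-skeleton protein adducin of red cells and neurons, was at 70.3, 58.1, 164, 162 and 159 CPM in JEKO-1 and had no read in MINO-P, which made it at least 559-fold higher. BMP7, a secreted bone morphogenetic protein, was at least 448-fold higher and KBTBD11 at least 423-fold higher, both without a read in MINO-P. STC2, a secreted glycoprotein hormone, was at 126, 118, 91.9, 181 and 59.7 CPM against at most 0.188 CPM. CLGN, a chaperone of the testis endoplasmic reticulum, was even across 4 JEKO-1 libraries (126 to 174 CPM) and lower in the S63845 library (24.9 CPM). The transcription factor TBX15 was at 47.1 to 121 CPM, the GTPase-activating protein ARHGAP21 at 50.1 to 112 CPM and the splicing regulator RBM20 at 55.1 to 113 CPM in JEKO-1, against at most 0.188, 0 and 1.84 CPM in MINO-P.

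The 12 largest differences in the other direction were of -4.63 to -6.90 log2 units (SE 0.28 to 0.54). IGFBP2, a secreted binding protein of insulin-like growth factors, was at 81.6, 120.3 and 279 CPM in the lowest, median and highest MINO-P library and at 0 in 4 JEKO-1 libraries, with 0.32 CPM in IBR replicate 3 (log2 difference -6.90 ± 0.31 SE). LGALS3 (ENSG00000131981, chromosome 14, 55124110 to 55145424), the sugar-binding protein galectin-3, was at 28.5, 53 and 137.9 CPM in the lowest, median and highest MINO-P library and had no read in JEKO-1, so that MINO-P was at least 236-fold higher. CERS6, a ceramide synthase, ranged from 36.9 to 84.5 CPM with a median of 58.3 CPM in MINO-P and had no read in JEKO-1, at least 207-fold lower. No library of either line came near the other for these 3 genes.

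AK4, a mitochondrial adenylate kinase, was at 0 in 4 JEKO-1 libraries and at 2.98 CPM in the S63845 library, against 27.8 to 155 CPM. TUBB2B, a neuronal beta-tubulin, was at 0.524 to 3.33 CPM in JEKO-1 and 58.3 to 206 CPM in MINO-P, but reads of near-identical tubulin genes may be shared. ANKRD65, the guanine nucleotide exchange factor FARP1, the mitochondrial phospholipase PLD6 and the chemoattractant precursor RARRES2 had at most 0.961, 1.36, 0.517 and 0.91 CPM in JEKO-1 and at least 31.4, 35.6, 25 and 22.5 CPM in MINO-P. The lambda constant genes IGLC2 and IGLC3 are described with the receptor genes.

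**Figure D1:**
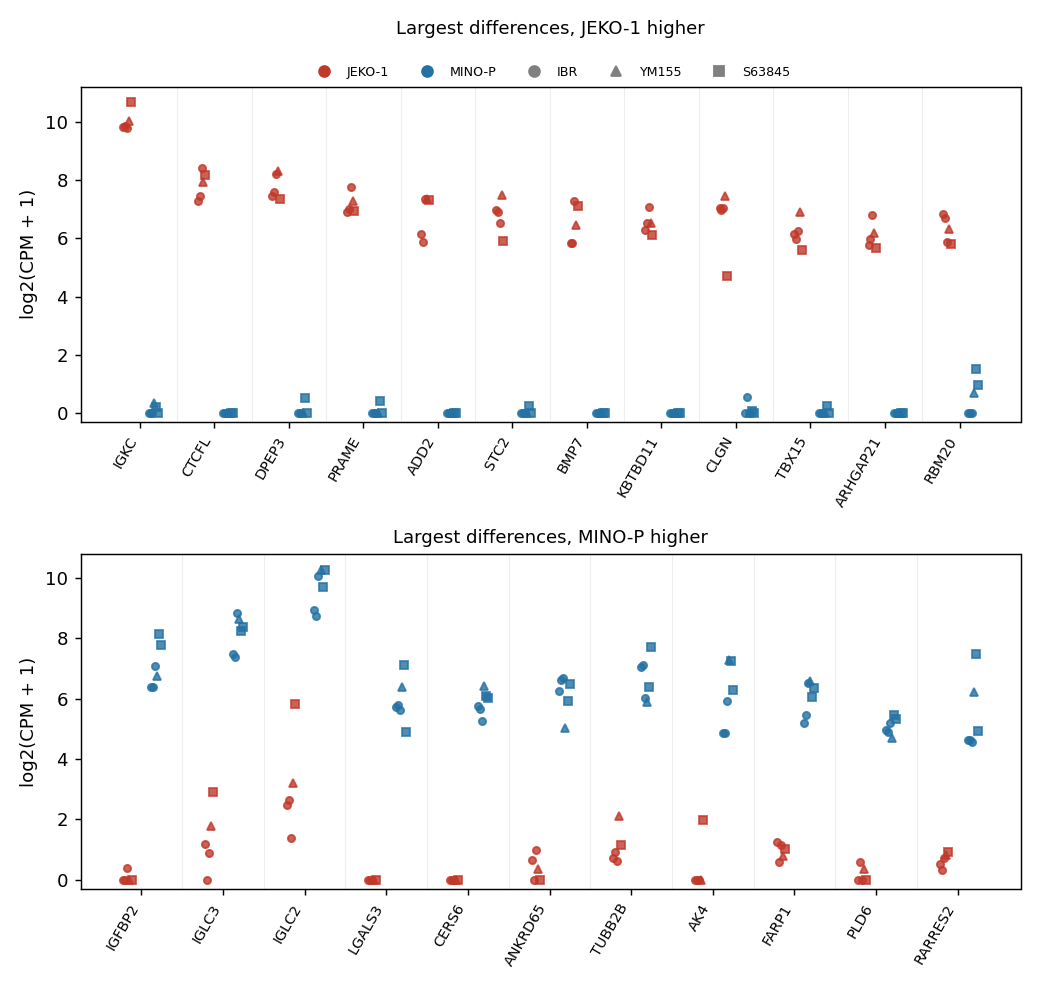
Expression of the 12 largest differences in favour of JEKO-1 and of 11 of the 12 in favour of MINO-P, as log2(CPM + 1) on the vertical axis, with 1 point for each of the 5 JEKO-1 libraries (red) and 6 MINO-P libraries (blue) and the treatment as the symbol. In both panels the 2 lines are separated for every gene, and the JEKO-1 S63845 library is the lowest JEKO-1 point for CLGN and the highest for IGLC2.

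Libraries outside the comparison gave the same direction for these 24 genes. All 24 had the same sign in the IBR_CLF libraries (2 of each line) and in the CON libraries (1 of each line), where JEKO-1 had 244 CPM of CTCFL and MINO-P had 0. Over all 4340 called genes, 91.2% had the same sign in the CON pair, against 66.1% of the 9714 genes that were not called. In the IBR_CLF libraries the shares were 75.5% and 55.9%. The JEKO-1 IBR_CLF libraries held 59.1% to 60.7% mitochondrial reads against 8.96% to 10.3% in MINO-P, the median gene was 0.75 log2 units lower in JEKO-1 there, and after removal of that shift the shares were 88.0% and 62.7%. Of the 801 called genes that differed by 2 log2 units or more, 96.5% had the same sign in the CON pair and 95.1% in the IBR_CLF libraries. The MINO-P CON library belongs to the other library series (HK), so line and series cannot be told apart in the CON pair.

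Under the same 3 treatments, MINO-VR, the other MINO culture of the series (5 libraries), was like MINO-P for the 12 JEKO-1 genes, with mean levels of 0 to 0.334 CPM, and had 24.2 to 632 CPM of the 12 MINO-P genes. Z138, the remaining line (5 libraries), was under 1 CPM for 8 of the 12 JEKO-1 genes. It had means of 294 CPM for IGKC, 69.1 CPM for ADD2, 22.3 CPM for ARHGAP21 and 4.01 CPM for KBTBD11. Among the 12 MINO-P genes, 10 had at least 1 CPM in Z138, and LGALS3 (0.577 CPM) and CERS6 (0 CPM) did not. MINO-VR was thus on the MINO-P side for all 24 genes, and Z138 was on the JEKO-1 side for some and the MINO-P side for others.

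In all, 127 genes other than receptor variable segments (0.904% of the 14054 tested) were at or under 3 reads in every library of 1 line. They averaged at least 5 CPM in the other line and met the same rules of call and separation. Of these, 95 were on in JEKO-1 and 32 in MINO-P. The promoters of 4 of the largest of these differences that have a RefSeq entry (GRCh38.p14) are shown, to let the CG content of genes that are silent in 1 line be seen. Each is the 250 bases before the most upstream annotated start, on the strand of the gene, with each CG in capitals. CTCFL lies at chr20:57525653-57525902 (minus strand), ADD2 at chr2:70768201-70768450 (minus), ARHGAP21 at chr10:24723888-24724137 (minus) and LGALS3 at chr14:55129002-55129251 (plus, inside the span the deposited table gives for the gene).
CTCFL: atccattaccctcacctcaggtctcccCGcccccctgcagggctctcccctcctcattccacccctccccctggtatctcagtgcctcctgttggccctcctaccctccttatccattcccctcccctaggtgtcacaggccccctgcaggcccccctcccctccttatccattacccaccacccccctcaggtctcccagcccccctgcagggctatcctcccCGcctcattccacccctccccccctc
ADD2: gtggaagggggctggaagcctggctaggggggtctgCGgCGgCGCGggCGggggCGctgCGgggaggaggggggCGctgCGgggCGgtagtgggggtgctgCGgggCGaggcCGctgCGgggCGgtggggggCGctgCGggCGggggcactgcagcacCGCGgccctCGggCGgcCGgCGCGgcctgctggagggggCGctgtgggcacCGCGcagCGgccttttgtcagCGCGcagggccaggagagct
ARHGAP21: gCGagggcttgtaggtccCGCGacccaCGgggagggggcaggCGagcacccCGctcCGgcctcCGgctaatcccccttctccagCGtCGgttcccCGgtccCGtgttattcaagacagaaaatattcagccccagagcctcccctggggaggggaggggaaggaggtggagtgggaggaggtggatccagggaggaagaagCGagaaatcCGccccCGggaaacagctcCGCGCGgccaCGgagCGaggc
LGALS3: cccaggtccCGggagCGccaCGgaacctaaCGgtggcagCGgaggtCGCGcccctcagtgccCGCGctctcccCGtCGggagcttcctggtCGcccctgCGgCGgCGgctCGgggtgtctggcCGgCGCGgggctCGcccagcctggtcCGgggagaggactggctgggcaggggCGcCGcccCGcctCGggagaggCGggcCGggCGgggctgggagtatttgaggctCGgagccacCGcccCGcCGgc

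CTCFL, silent in MINO-P, held 2 CG in this window, ADD2 31, ARHGAP21 20 and LGALS3, silent in JEKO-1, 32. The median over 27305 genes with a promoter in the table was 10, and over the 10677 tested genes among them it was 21. GGGCGG, read on both strands, was found 1 time for CTCFL, 5 times for ADD2, 1 time for ARHGAP21 and 3 times for LGALS3, and 66.2% of the promoters of tested genes held it. TATAAA, read on both strands, was in none of the 4 and in 5.67% of the promoters of tested genes. Among genes on in JEKO-1 alone, 70 matched a promoter, with a median of 18.5 CG and GGGCGG in 74.3%. Among those on in MINO-P alone, 22 matched, with a median of 13.5 CG and GGGCGG in 63.6%. These are descriptions of letters in a window and not of binding or methylation.

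The light-chain genes IGKC, IGLC2 and IGLC3 and the leading variable segments separated the lines, while 9 of 19 constant, J chain and surrogate light-chain genes overlapped. JEKO-1 expressed kappa: IGKC was at 912, 927 and 891 CPM in IBR, 1066 CPM in YM155 and 1647 CPM in S63845, and at 0 in the median MINO-P library, with a highest value of 0.277 CPM (log2 difference 9.998 ± 0.22 SE). MINO-P expressed lambda: IGLC2 was at 423, 951 and 1236 CPM in the lowest, median and highest MINO-P library and at 4.53, 5.17, 1.6, 8.24 and 54.9 CPM in JEKO-1 (-6.36 ± 0.44 SE). IGLC3 was at 165 to 454 CPM in MINO-P and 0 to 6.55 CPM in JEKO-1. The highest lambda values of JEKO-1 were in its S63845 library. IGLC2 and IGLC3 are near-identical copies, and the split of reads between them is uncertain.

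Each line had its own variable segments. IGKV3-20 was at 735, 679, 310.2, 460.1 and 982 CPM in JEKO-1 and had no read in MINO-P, at least 2886-fold higher. IGHV2-70 was at 235, 228, 239, 172 and 342 CPM in JEKO-1 and had no read in MINO-P, at least 1109-fold higher. In MINO-P, IGLV3-19 was at 383, 1088 and 1483 CPM in the lowest, median and highest library, against 0.0577 CPM in the JEKO-1 YM155 library and 0 in the other 4. IGHV3-21 was at 146, 234 and 430.0 CPM in MINO-P and had no read in JEKO-1. A further lambda segment, IGLV9-49, was at 46.8 to 134 CPM in MINO-P and had no read in JEKO-1. MINO-VR had the MINO-P segments (743 CPM of IGLV3-19 and 183 CPM of IGHV3-21) and 0 CPM of IGHV2-70, and Z138 had 0 CPM of IGHV2-70, IGHV3-21 and IGLV3-19. Variable segments resemble one another, so that part of a segment's reads may belong to a relative.

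The heavy-chain constant genes overlapped more. IGHM, the mu chain of surface IgM, was at 1688, 1758, 2589.8, 1578 and 3023 CPM in JEKO-1 and at 2096, 3151 and 5806 CPM in the lowest, median and highest MINO-P library, a difference that did not pass the test (adjusted p = 0.174). The gamma genes were higher in MINO-P: IGHG2 was at 10 to 35 CPM against at most 0.423 CPM (-4.25 ± 0.39 SE), and IGHG4 at 22.3 to 51.1 CPM against 0.722 to 2.76 CPM. IGLL5, which shares exons with the first lambda constant gene, was at 16.9, 20.4, 31.7, 72.6 and 162 CPM in JEKO-1 and at most 0.145 CPM in MINO-P. IGHE, the epsilon chain, was at 0.987, 1.16, 2.82 and 4.9 CPM in 4 JEKO-1 libraries and 29.2 CPM in S63845, and at most 0.416 CPM in MINO-P. In the list of 19 constant, J chain and surrogate light-chain genes, all tested, 4 were higher in JEKO-1 and 10 in MINO-P. The shares over all genes were 16.6% and 14.2%. The median difference of the list was -1.36 against 0.03 over all genes. IGKC, IGLL5 and IGHE reached 1 CPM in no MINO-P library, and IGHG2 in no JEKO-1 library. These genes passed the filter of 1 CPM in 2 or more libraries through 1 line alone, which fixed their direction. The counts of the list are therefore a description only. The J chain gene JCHAIN differed more within the lines than between them, from 0.259 to 203 CPM in JEKO-1 and from 1.9 to 187 CPM in MINO-P.

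MHC class II genes, which present antigen to T cells, differed by locus. HLA-DQB1 was at 18.9, 25.3, 14.3, 37.4 and 52.6 CPM in JEKO-1 and at 218, 422 and 614 CPM in the lowest, median and highest MINO-P library (-3.68 ± 0.29 SE). HLA-DQA1 was at 8.89 to 26.3 CPM against 95.4 to 435 CPM. The second DQ pair ran the other way: HLA-DQA2 was at 28.9, 24.7, 26.1, 49.7 and 28.5 CPM in JEKO-1 and at 0 to 1.12 CPM in MINO-P (4.43 ± 0.31 SE), and HLA-DQB2 at 1.15 to 3.67 CPM against 0. In the DR locus HLA-DRB1 was at 55.7 to 99.1 CPM against 93.7 to 461 CPM and was called (-1.57 ± 0.29 SE, adjusted p = 0.00114), though not in the IBR libraries alone (0.0649). HLA-DPA1 was called with overlapping ranges (-0.67 ± 0.21 SE, adjusted p = 0.0272). Its call was lost on leaving out JEKO-1 IBR replicate 1 (0.0661), JEKO-1 YM155 (0.0612), JEKO-1 S63845 (0.0726), MINO-P IBR replicate 3 (0.0526) or MINO-P YM155 (0.0607). HLA-DRA (adjusted p = 0.325), the invariant chain gene CD74 (0.0908) and CIITA, the class II transactivator (0.992), did not pass the test. Of 20 class II genes, 3 were higher in JEKO-1 and 7 in MINO-P, against 16.6% and 14.2% over all genes. For HLA-DQA2 and HLA-DQB2 fewer than 2 MINO-P libraries reached 1 CPM. Both passed the filter of 1 CPM in 2 or more libraries only with JEKO-1, which fixed their direction. DQ genes are polymorphic paralogues, and a line's alleles can change how many of its reads match the reference, which was not tested.

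In MHC class I, 17 of 18 listed genes were tested. Of these 0 were higher in JEKO-1 and 3 in MINO-P, against 16.6% and 14.2% over all genes. HLA-E, a ligand of natural killer cell receptors, was at 121, 127, 83.4, 148 and 90.6 CPM in JEKO-1 and 269 to 409.6 CPM in MINO-P, without overlap (-1.61 ± 0.19 SE). HLA-B (0.146) and B2M (0.0986) did not pass the test, by adjusted p. Without the 4 libraries with few genes at low reads, the class I calls were 4 higher in JEKO-1 and 1 higher in MINO-P. No direction is read from this list.

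**Figure D2:**
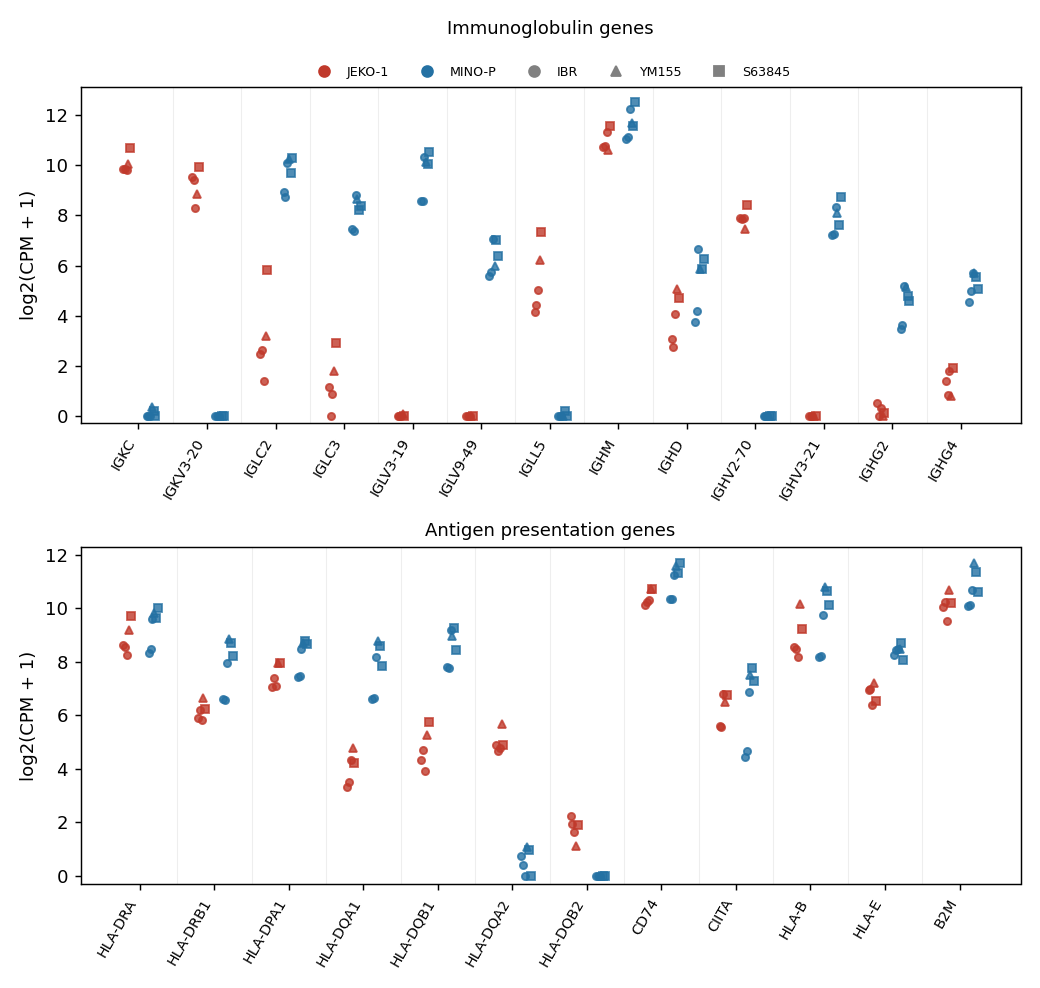
Immunoglobulin genes (upper panel) and antigen presentation genes (lower panel) as log2(CPM + 1), with 1 point per library, JEKO-1 in red and MINO-P in blue and the treatment as the symbol. Kappa and lambda genes and the DQ genes separate the lines, while IGHM, HLA-DRA, CD74 and CIITA overlap.

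The markers that define B cells and mantle cell lymphoma were present in both lines and mostly lower in JEKO-1. Their summed level was 1486 to 2977 CPM in JEKO-1 and 2185 to 5945 CPM in MINO-P. Of the 9 markers 7 were lower in JEKO-1 and none was higher, against 14.2% and 16.6% over all genes. MS4A1, which encodes CD20, was at 247, 256, 282, 426 and 728 CPM in JEKO-1 against 563 to 1922 CPM in MINO-P (-1.51 ± 0.31 SE), with overlap through the JEKO-1 S63845 library. CD79A and CD79B, the signalling chains of the receptor, differed by -0.70 ± 0.18 and -1.13 ± 0.27 without overlap, although CD79A was not called with the lettered pairs averaged (adjusted p = 0.0523).

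SOX11, a transcription factor characteristic of this lymphoma, was at 89.7, 80.8, 139.9, 90.6 and 141 CPM in JEKO-1 and 158 to 461 CPM in MINO-P (-1.34 ± 0.23 SE). CCND1 was high in both, at 663, 685, 836, 723 and 1488 CPM in JEKO-1 and 695, 1573 and 2758 CPM in the lowest, median and highest MINO-P library, and did not pass the test (-0.64 ± 0.32 SE, adjusted p = 0.143). PAX5, which maintains B-cell identity, overlapped throughout (-0.05 ± 0.36 SE, adjusted p = 0.937). CD22 (-1.96 ± 0.59 SE, adjusted p = 0.0231) and CD5 (-1.53 ± 0.46 SE, adjusted p = 0.0224) were called with overlapping ranges. The CD22 call was lost without JEKO-1 IBR replicate 2 (0.0608), without MINO-P YM155 (0.0674) or without JEKO-1 YM155 (0.0662). The CD5 call was lost without JEKO-1 IBR replicate 1 (0.0503), without MINO-P YM155 (0.0844) or without JEKO-1 YM155 (0.0835).

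T-cell, myeloid, epithelial and stromal markers were low or absent apart from CD7, and plasma cell markers were expressed in both lines. Of 8 T-cell markers 3 passed the filter on low values, and CD3G and CD2 had no read in either line. CD7, a T-cell surface protein, was at 4.23, 2.07, 4.16, 3.35 and 3.72 CPM in JEKO-1 and 55.1, 86.0 and 166 CPM in the lowest, median and highest MINO-P library (-4.32 ± 0.31 SE). Without CD7 the 7 other T-cell markers summed to at most 21.8 CPM in JEKO-1 and 12.8 CPM in MINO-P. Myeloid markers in the table summed to 3.05 to 13.4 CPM in JEKO-1 and 10.9 to 30.5 CPM in MINO-P, plasma cell markers to 487 to 646 CPM and 391.6 to 687.1 CPM, and epithelial and stromal markers to 15.1 to 41.0 CPM and 6.66 to 26.5 CPM. Among plasma cell markers SDC1, the syndecan CD138, was at 0 to 12.6 CPM in JEKO-1 and 18.3 to 81.1 CPM in MINO-P. TNFRSF17, the receptor BCMA, was higher in JEKO-1 in the compared libraries (1.59 ± 0.31 SE). Outside them it was not: the CON libraries had 24.6 CPM in JEKO-1 and 26.2 CPM in MINO-P. The IBR_CLF libraries had 3.61 and 3.89 CPM in JEKO-1 and 16.2 and 16.2 CPM in MINO-P.

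Surface antigens and receptor signalling genes were more often called lower than higher in JEKO-1. Of 50 tested surface antigens 3 were higher in JEKO-1 and 20 in MINO-P, against 16.6% and 14.2% over all genes. Their median difference was -0.57. Without the 4 libraries with few genes at low reads the counts were 6 and 14. CD9, a tetraspanin, was at 4.37, 6.98, 4.48, 4.27 and 12.2 CPM in JEKO-1 and 26.9 to 105 CPM in MINO-P (-2.83 ± 0.30 SE). CD44, the hyaluronan receptor, was at 10.7, 9.18, 17.4, 22.1 and 82.2 CPM against 98.0 to 236 CPM (-2.80 ± 0.32 SE), with the S63845 library highest. CD52, the target of alemtuzumab, was at 5.96 to 18.8 CPM against 36.6 to 128 CPM. FCRL5, an Fc receptor-like protein, was called with overlapping ranges (-2.50 ± 0.55 SE).

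In B-cell receptor signalling, 36 of 37 listed genes were tested. Of these 2 were higher in JEKO-1 and 13 in MINO-P, against 16.6% and 14.2% over all genes. Their median difference was -0.50. PTPN6, the phosphatase SHP-1, which dampens receptor signals, was at 5.64, 10.9, 2.82, 55.5 and 21.3 CPM in JEKO-1 and 20.7, 90.4 and 316 CPM in the lowest, median and highest MINO-P library (-2.56 ± 0.34 SE), with overlap through the JEKO-1 YM155 and S63845 libraries. LYN, a kinase that starts and restrains the receptor signal, was 1.14 ± 0.22 log2 units lower in JEKO-1 with overlapping ranges. Calls in this list without the 4 libraries were 5 and 13 of 35. BTK lies on the X chromosome and is not part of this comparison.

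Of 28 tested homing and adhesion genes 5 were higher in JEKO-1 and 8 in MINO-P, against 16.6% and 14.2% over all genes. Without the 4 libraries with few genes at low reads 5 of 25 were called in each direction. Both chains of the integrin LFA-1, which binds ICAM proteins on other cells, were lower in JEKO-1. ITGB2, the beta chain, was at 0.423, 2.59, 1.79, 6.0 and 3.14 CPM against 16.4, 84.0 and 181 CPM in the lowest, median and highest MINO-P library (-4.14 ± 0.41 SE), and ITGAL, the alpha chain, at 0.993 to 22.7 CPM against 11.6 to 118 CPM (-2.59 ± 0.49 SE). ICAM3, a ligand of LFA-1, was at 21.4 to 46.0 CPM against 87.2 to 227 CPM, and CCR7, the chemokine receptor for lymph node entry, at 69.6 to 89.3 CPM against 170.3 to 611 CPM. PCDH9, a protocadherin, was at most 4.88 CPM in JEKO-1 and 3.61 to 99.7 CPM in MINO-P. Fewer than 2 JEKO-1 libraries reached 1 CPM of PCDH9, so the filter on low values fixed its direction. ALCAM, an adhesion molecule, was higher in JEKO-1, at 27.4, 23.8, 43.2, 73.0 and 48.2 CPM against 1.92 to 17.3 CPM (2.90 ± 0.36 SE).

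**Figure D3:**
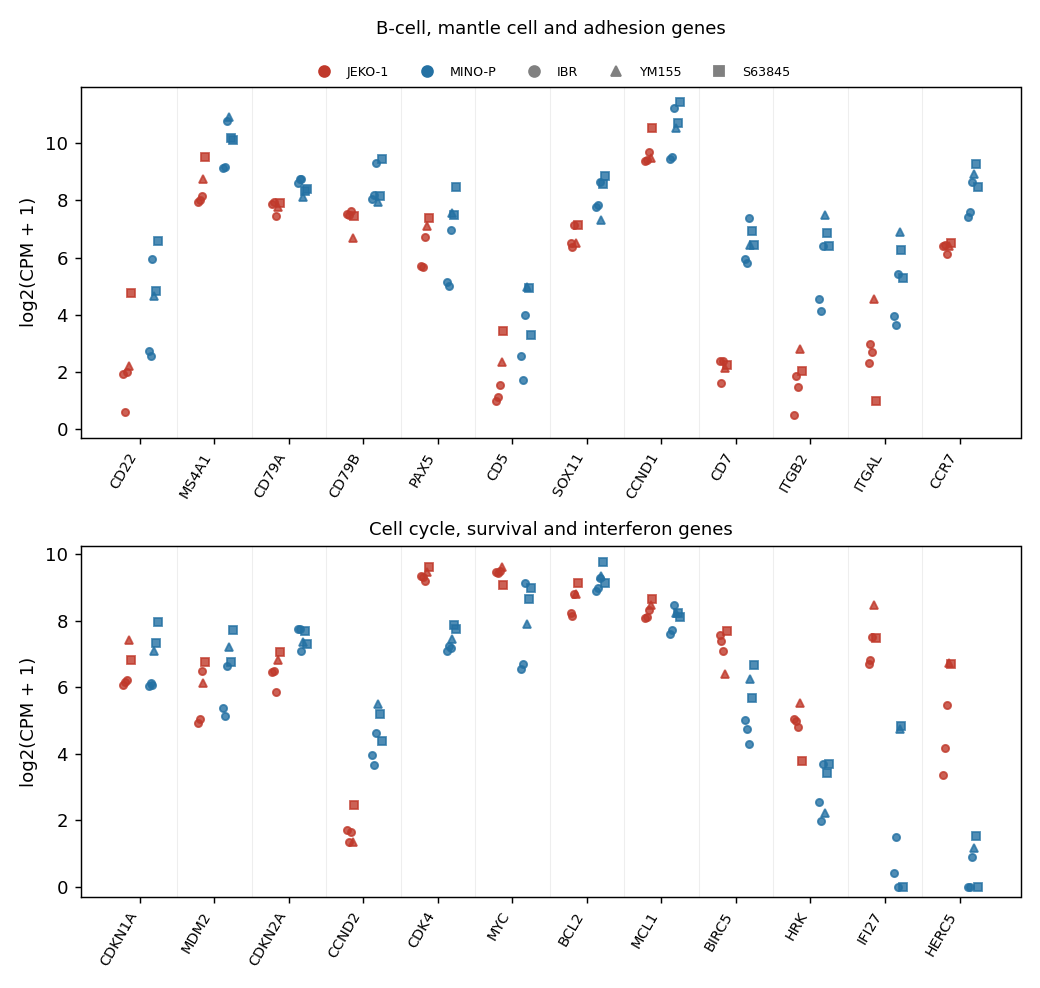
B-cell, mantle cell and adhesion genes (upper panel) and cell cycle, survival and interferon genes (lower panel) as log2(CPM + 1), with 1 point per library, JEKO-1 in red and MINO-P in blue and the treatment as the symbol. CD7, ITGB2 and CDK4 separate the lines, and CCND1, PAX5, MCL1 and CDKN1A overlap.

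Of 29 tested G1, cyclin and tumour suppressor genes 6 were higher in JEKO-1 and 7 in MINO-P. The shares over all genes were 16.6% and 14.2%. CDK4, the kinase that pairs with D-type cyclins, was at 653, 632, 584, 707 and 788 CPM in JEKO-1 and at 135, 161 and 234 CPM in the lowest, median and highest MINO-P library (2.02 ± 0.16 SE). CCND2, cyclin D2, was at 1.56 to 4.55 CPM against 11.6 to 44.2 CPM (-2.77 ± 0.35 SE), and CDKN2A, which encodes the inhibitor p16 and the protein ARF, at 56.4 to 133 CPM against 136 to 214 CPM (-0.92 ± 0.22 SE). MYC was even across JEKO-1, at 705, 691, 718, 789 and 533 CPM, and spread from 92.5 to 556 CPM in MINO-P (1.51 ± 0.42 SE, adjusted p = 0.0147). The MYC call was lost with the lettered pairs averaged (adjusted p = 0.0659), the difference was 0.25 between the S63845 libraries, and the CON libraries had 608 CPM in JEKO-1 and 585 CPM in MINO-P. With the lettered pairs averaged, the list's calls were 1 higher in JEKO-1 and 6 in MINO-P. CDKN1A, an inhibitor of cyclin-dependent kinases (98.1 ± 43.4 CPM in JEKO-1, SD, n = 5, against 123 ± 72.8 CPM in MINO-P, n = 6), and the ubiquitin ligase gene MDM2 (65.1 ± 34.2 against 106 ± 65.7) did not pass the test (adjusted p = 0.729 and 0.33), with differences of -0.10 ± 0.20 and -0.46 ± 0.34 SE.

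Of the targets named in the study's title, BIRC5, the inhibitor of apoptosis survivin, was higher in JEKO-1. It stood at 188, 166, 134, 83.3 and 206 CPM, with the lowest value in the YM155 library, and at 18.7, 40.9 and 100.3 CPM in the lowest, median and highest MINO-P library (1.90 ± 0.34 SE, adjusted p = 0.000895). The ranges overlapped through the JEKO-1 YM155 library, and the call was lost in the YM155 and S63845 libraries alone (adjusted p = 0.194). By treatment the BIRC5 difference was 2.651 in IBR, 0.154 in YM155 and 1.515 in S63845. The CON libraries had 249.6 CPM in JEKO-1 and 121.4 CPM in MINO-P. In IBR_CLF the lines were alike, at 35.2 and 42.3 CPM in JEKO-1 and 37.8 and 42.8 CPM in MINO-P. MCL1 was at 272 to 399 CPM in JEKO-1 and 194 to 357 CPM in MINO-P and did not pass the test (0.30 ± 0.19 SE, adjusted p = 0.26). BCL2, the target of venetoclax, differed by -0.56 ± 0.20 SE and did not pass the test (adjusted p = 0.0509). HRK, a BH3-only activator of cell death, was at 12.8 to 44.9 CPM in JEKO-1 and 2.93 to 12 CPM in MINO-P (1.92 ± 0.42 SE). Of 31 tested apoptosis regulators 5 were higher in JEKO-1 and 8 in MINO-P, against 16.6% and 14.2% over all genes. Their median difference was -0.24, and with the lettered pairs averaged 3 were called in each direction. Without the 4 libraries with few genes at low reads the counts were 8 and 7.

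Among 38 transcription factors of B cells, all tested, 5 were higher in JEKO-1 and 6 in MINO-P, close to the shares over all genes (16.6% and 14.2%). Without the 4 libraries with few genes at low reads the counts were 6 and 11. IRF8, a factor of germinal centre and mantle zone B cells, was at 57.3, 71.6, 62.6, 82.7 and 129.8 CPM in JEKO-1 and 3.13 to 26.3 CPM in MINO-P (2.81 ± 0.41 SE). SOX4, a factor of early B cells, was at 17.9 to 58.7 CPM against 1.02 to 18.2 CPM, with overlap (2.82 ± 0.50 SE).

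Of 29 tested cytokines and chemokines 1 was higher in JEKO-1 and 9 in MINO-P, and of 39 tested NF-kB pathway and target genes 3 and 9, against 16.6% and 14.2% over all genes. Without the 4 libraries with few genes at low reads the counts were 3 and 10 for cytokines and chemokines and 7 and 10 for NF-kB genes. CCL4, a chemokine released by stimulated B cells, had 0.173 CPM in the JEKO-1 YM155 library and no read in the other 4, against 2.2, 8.3 and 116 CPM in the lowest, median and highest MINO-P library. CCL3 was at most 3.72 CPM in JEKO-1 and 1.1 to 71.6 CPM in MINO-P. LTB, lymphotoxin beta, was at most 0.404 CPM against 2.57 to 39.5 CPM (-3.15 ± 0.45 SE). TNFSF14 was at 0 to 3.75 CPM against 5.04 to 17.4 CPM. CCL3 and CCL4 have near-identical copies, with which they may share reads. CCL3, CCL4 and LTB are in both lists, so the counts of the lists are not independent. CCL4 and LTB reached 1 CPM in no JEKO-1 library. They passed the filter on low values through MINO-P alone, which fixed their direction.

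Of 40 tested interferon-stimulated genes 5 were higher in JEKO-1 and 6 in MINO-P, close to the shares over all genes (16.6% and 14.2%), and without the 4 libraries with few genes at low reads the counts were 8 and 7. IFI27 was at 104, 112, 182, 352 and 176 CPM in JEKO-1 and 0, 1.07 and 27.3 CPM in the lowest, median and highest MINO-P library (5.55 ± 0.69 SE). HERC5, the ligase for the ubiquitin-like protein ISG15, was at 9.31, 16.9, 43.0, 106 and 103 CPM against 0 to 1.88 CPM (4.80 ± 0.48 SE), and SP110, a nuclear body protein, at 3.81 to 18.6 CPM against 0 to 0.899 CPM. USP18 was called with overlapping ranges, 23.6 to 263 CPM against 0 to 122 CPM. The guanylate-binding proteins GBP5 and GBP2 were lower in JEKO-1. GBP5 had no read in JEKO-1 and 2.16 to 23.6 CPM in MINO-P, at least 45-fold higher, and GBP2 was at 0 to 2.97 CPM against 3.24 to 25.1 CPM. SAMD9 was also lower in JEKO-1 (-2.20 ± 0.41 SE). SP110 passed the filter on low values through JEKO-1 alone and GBP5 through MINO-P alone, which fixed their direction.

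Of 41 genes in the HOX list (HOX cluster genes, MEIS1 and PBX3) 16 passed the filter on low values, and 8 of these were called, all higher in JEKO-1. Each of the 8 was at most 0.236 CPM (HOXA9) in MINO-P and so passed the filter through JEKO-1 alone, which fixed its direction, and no direction of the list is read from them. HOXA4 was at 4.8, 5.69, 5.51, 14.0 and 6.95 CPM and HOXA13 at 4.94, 4.53, 6.53, 3.58 and 11.2 CPM in JEKO-1, and neither had a read in MINO-P. HOXA4 was at least 33.6-fold and HOXA13 at least 28-fold higher. Of 30 autosomal cancer-testis genes 7 were tested and 3 were called, CTCFL, PRAME and DDX43, which likewise passed the filter through JEKO-1 alone. Of 33 tested zinc-finger genes of chromosome 19 8 were higher in JEKO-1 and 3 in MINO-P, against 16.6% and 14.2% over all genes. With the lettered pairs averaged the counts were 7 and 1. ZNF90, ZNF486, ZNF681 and ZNF85 were at 6.45 to 25.2, 4.96 to 22.2, 5.08 to 14.1 and 4.05 to 13.5 CPM in JEKO-1 and at most 0.0471, 1.08, 0 and 1.86 CPM in MINO-P, and they resemble one another in sequence. For each of these, fewer than 2 MINO-P libraries reached 1 CPM. They passed the filter only with JEKO-1, which fixed their direction, and no direction of the list is read from them.

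Genes known to be missing or silent in some inherited haplotypes were also compared between the lines. Of 40 listed, 30 were tested, 6 were higher in JEKO-1 and 10 in MINO-P, against 16.6% and 14.2% over all genes. GSTM1, a glutathione transferase with a common whole-gene deletion, had no read in JEKO-1 and 2.26, 6.32 and 7.58 CPM in the lowest, median and highest MINO-P library, at least 20.1-fold higher. UGT2B17, a glucuronosyltransferase with a common deletion, had no read in JEKO-1 and 3.34 to 21.4 CPM in MINO-P, at least 41.4-fold higher. LRRC37A2, on the inverted haplotype of chromosome 17, was at 0 to 1.45 CPM against 16.4 to 49.9 CPM (-4.12 ± 0.39 SE). Each of these has close relatives with which reads may be shared. For each, fewer than 2 JEKO-1 libraries reached 1 CPM. They passed the filter on low values only with MINO-P, which fixed their direction. Under the same 3 treatments MINO-VR had a mean of 0.394 CPM of GSTM1, with a highest value of 0.816 CPM. MINO-P and MINO-VR thus differed for GSTM1, and the cause was not tested. For UGT2B17 and LRRC37A2 the MINO-VR means were 12.9 and 35.3 CPM. Of 14 tested drug transport and handling genes 3 were higher in JEKO-1 and 2 in MINO-P, against 16.6% and 14.2% over all genes. SLC35F2, the transporter that takes up YM155, was higher in JEKO-1 at 52.9, 61.2, 91.4, 132 and 63.0 CPM against 15.4 to 69.8 CPM with overlap (1.10 ± 0.27 SE), and ABCC4, an efflux pump, was lower at 0 to 1.97 CPM against 2.23 to 15.9 CPM (-2.44 ± 0.48 SE).

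**Figure D4:**
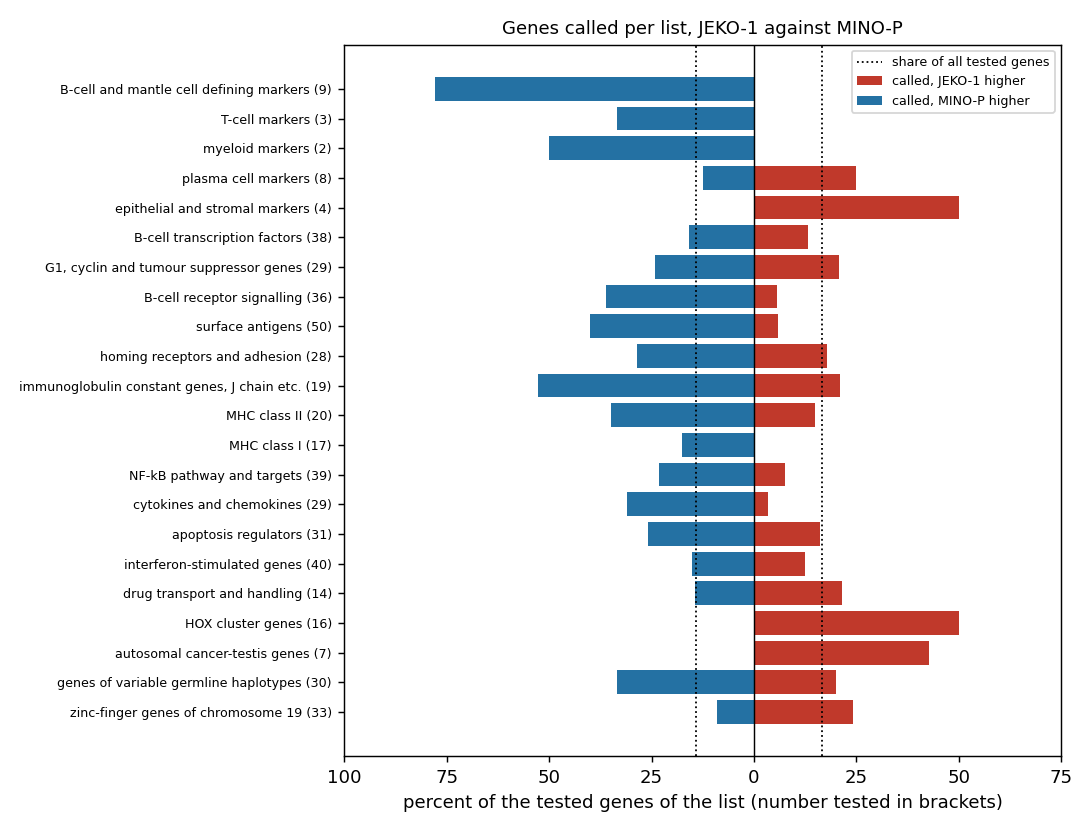
Share of the tested genes of each list that was called higher in JEKO-1 (red, to the right) or higher in MINO-P (blue, to the left), in percent, with the number tested in brackets and dotted lines at the shares over all 14054 tested genes (16.6% and 14.2%). Bars of lists with under 10 tested genes rest on 1 to 7 called genes.

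The line difference was unevenly spread over the chromosomes. On chromosome 9 the median difference over 585 genes was 0.63 against 0.03 over all genes, with 41.7% called higher in JEKO-1 and 5.64% higher in MINO-P. Chromosome 3 (0.37) and chromosome 4 (0.30) followed. At the other end lay chromosome 21 (-0.40), chromosome 8 (-0.37), chromosome 7 (-0.35) and chromosome 17 (-0.33). These signs were the same within each of the 3 treatments and in the CON pair, where chromosome 9 had a median of 0.61 and chromosome 8 of -0.49, and with mitochondrial genes left out (0.71 and -0.32) or with size factors (0.62 and -0.38). RNA levels alone do not give chromosome number, which was not measured.

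Within chromosomes, 341 windows of about 40 neighbouring tested genes were summarised. The 3 lowest were consecutive on chromosome 17, from 7402975 to 19190246 in GRCh38, with medians of -1.12, -1.18 and -1.19. The third of them holds PLD6, and 24 of 42, 25 of 42 and 25 of 41 genes in them were called lower in JEKO-1. On chromosome 12 the window from 56416363 to 57772120, which holds CDK4, had a median of 0.99 and 27 of 41 genes called higher. The highest window lay on chromosome 22, from 41205282 to 42614963, with a median of 1.15 and 27 of 40 genes called higher. In the CON pair these windows had medians of -0.97, -1.46 and -1.49 on chromosome 17, 0.79 on chromosome 12 and 0.99 on chromosome 22. The 40 nearest tested neighbours of MYC had a median of 0.10, with 11 called higher in JEKO-1 and 14 called lower. Calls near MYC thus ran in both directions. Those 40 for CTCFL had a median of -0.22, with 2 called higher and 2 called lower.

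**Figure D5:**
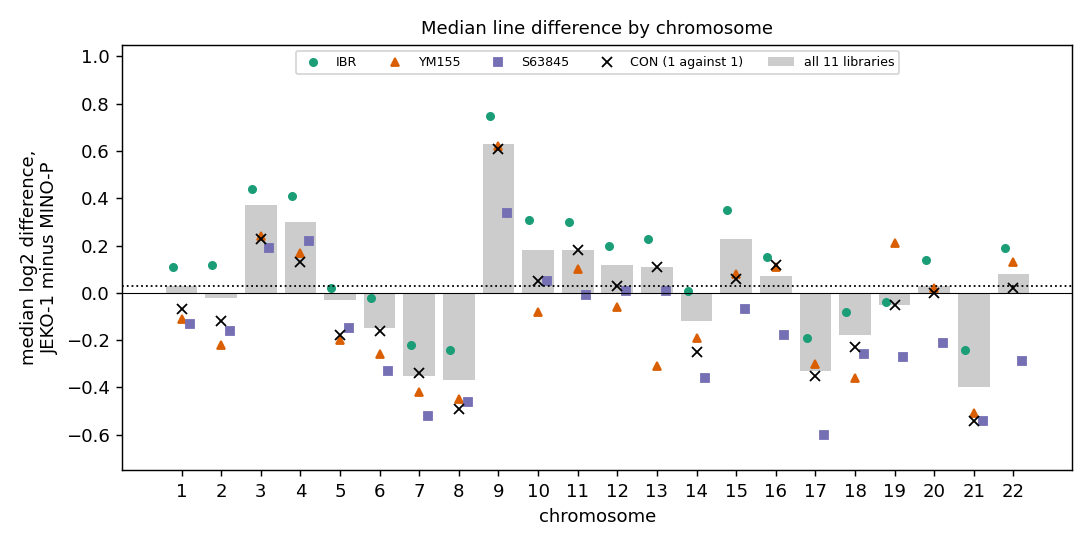
Median JEKO-1 minus MINO-P log2 difference of the tested genes of each autosome, over all 11 libraries (grey bars), within IBR, YM155 and S63845 (coloured symbols) and in the CON libraries (crosses, 1 library of each line), with the dotted line at the median over all genes (0.03). Chromosome 9 is highest under each treatment, and chromosomes 7, 8, 17 and 21 lie below 0 under each.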

How the data were processed

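RNA-seq libraries were made from poly-A RNA, per the labels' protocols, with a kit that does not mark strand. The submitters' processing notes name Partek and the hg38 genome, and other details are not given in the sources used here. The authors deposited 1 table of log2(CPM + 1) for 21596 genes and 56 libraries, with 0 unmatched value columns. Values under 1e-06 were set to 0, and an entry without a gene name (at most 0.000622% of a library) was left out. Depth was recovered from the steps between low values, of which 81.0% to 86.1% were whole reads within 0.02 reads, so no count model was fitted.

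Genes off chromosomes X and Y were kept where 2 or more of the 11 libraries reached 1 CPM, and tested with limma 3.58.1 (R 4.3.3, intensity trend) on treatment plus line, after a check on simulated data, and called at a Benjamini-Hochberg adjusted p under 0.05. All adjusted p-values are limma's over 14054 genes. Replicate numbers follow accession order and pair nothing.

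Genes were named if called, without overlap between the lines, of 1 direction in each treatment and at 5 CPM or more in the higher line. The 12 largest in each direction and up to 4 receptor segments in each were taken, then called genes of 22 lists with a difference of 2 or more (up to 4 per list and direction). The defining B-cell and mantle cell markers were added whether called or not. Some genes that meet these rules are not reported here. BIRC5 and MCL1 were added for the title. BCL2, MYC, CDKN1A, MDM2, CDKN2A, CCR7, HRK, SLC35F2, LYN, TNFRSF17, IGHM, JCHAIN, HLA-E, HLA-DRB1, HLA-DPA1, DDX43, HOXA9, HLA-B, B2M, HLA-DRA, HLA-DQB2, CD74 and CIITA were chosen after their values were seen. The comparison, members and lists were chosen with earlier results of these data known. Fold bounds set the mean of the higher line against the mean 3-read floor of the other. Floors cover counting error only. Promoters are from RefSeq, and promoters of BMP7 and KBTBD11 were not in the table used. Alternatives added after seeing the data concern the 4 libraries with few genes at low reads.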

Additional observations from a re-analysis of the deposited data

How the results depend on the processing

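The count of 4340 genes called between JEKO-1 and MINO-P was 2752 with the library-name sets as a correlated block, 1140 in the YM155 and S63845 libraries alone, 6800 with array weights and 1766 in only the 4 libraries with few genes at low reads, the last chosen after seeing the data. Asking for a difference of at least 1 log2 unit left 2991. Leaving out 1 library at a time gave 3521 to 4288 genes, and IBR libraries alone gave 3156, of which 63.4% were higher in JEKO-1. Line differences that varied with treatment were 5 with log2(CPM + 0.1) and 81 with a term for the 4 libraries, an alternative added after seeing the data. The cause was not tested. The mitochondrial share difference was 4.79 points (exact permutation p = 0.0833) with the lettered pairs averaged, and 2.60 to 6.60 points with 1 library left out, where it passed 0.05 in 2 of 11 cases. Of 113 called genes in the tables of named genes, 70 were called under each alternative run, 43 lost the call under at least 1 and 0 changed direction. The 29 largest differences and receptor segments kept their call throughout. No paired analysis was possible because the labels give no replicate numbers. Depth limits genes under 3 reads, and MINO-P and JEKO-1 each have 1 YM155 library.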

Other observations

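Genes of cholesterol synthesis were mostly higher in JEKO-1. These genes were chosen after their values were seen, so the counts are a description. Of 16 tested, 12 were higher in JEKO-1 and 0 in MINO-P, by limma at an adjusted p of 0.05. SQLE, which oxidises squalene, was at 320.6 ± 72.6 CPM (SD, n = 5) in JEKO-1 and 67.9 ± 43.7 CPM (n = 6) in MINO-P, a log2 difference of 2.52 ± 0.31 SE. HMGCS1, an early enzyme of the pathway, was at 346 ± 71.0 CPM against 79.9 ± 61.7 CPM (2.44 ± 0.34 SE). MSMO1, a sterol demethylase component, was at 193 ± 44.9 CPM against 48.6 ± 18.0 CPM (2.04 ± 0.25 SE), and DHCR7, the last enzyme of a branch of the pathway, at 143 ± 32.2 CPM against 40.3 ± 21.4 CPM (1.97 ± 0.28 SE). PMVK, CYP51A1, TM7SF2 and LSS did not pass the test.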
